A study of Homo sapiens with 7 samples.

Results

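The respiratory chain genes described here were taken from the deposited table by symbol. They are all genes whose symbol begins with MT- or ATP5, those that match NDUFA, NDUFB, NDUFC, NDUFS or NDUFV followed by a number, NDUFAB1, SDHA to SDHD, CYC1, the UQCR genes and the COX4 to COX8 genes. The rule found 102 of the 19978 genes in the table, of which 13 are encoded by the mitochondrial genome and 89 by the nuclear genome. Complex I holds 7 mitochondrial and 37 nuclear genes, complex II holds 4 nuclear genes, complex III holds 1 and 10, complex IV holds 3 and 18, and complex V holds 2 and 20. NDUFA4 was placed in complex IV, of which it is a subunit in spite of its name.

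The genes were measured in HEK-293, an established human embryonic kidney cell line, after 48 h in 3 media that all contained the solvent DMSO. The control was DMEM of pH 7.4 (2 samples), acidosis was DMEM brought to pH 6.6 with hydrochloric acid (3 samples), and the SRPIN340 group was DMEM of pH 7.4 with 10 µM SRPIN340, an inhibitor of the kinases that phosphorylate SR splicing proteins (2 samples). RNA was captured by its poly(A) tail, and the table gives an estimated count for each gene and sample. A single cell line was used, and a treatment note in the labels spells the inhibitor SRPIN 350 where the titles and the design text have SRPIN340.

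The respiratory chain passes electrons from NADH through complex I, or from succinate through complex II, to ubiquinone, complex III, cytochrome c and complex IV, and complex V uses the resulting proton gradient to make ATP. Complexes I, III, IV and V are built from subunits of both genomes, whereas complex II is wholly nuclear. The mitochondrial genome is transcribed into long precursors that are cut into single mRNAs, most of which then receive a short poly(A) tail. Nuclear subunits are transcribed gene by gene, translated in the cytosol and imported.

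Library totals were between 13615816 and 24110460 counts. Values per sample are CPM (counts-per-million) on library totals scaled by edgeR's TMM factors, which were 1.17 to 1.18 in control, 1.21 in both SRPIN340 samples and 0.782 to 0.800 in acidosis. A gene passed at a Benjamini-Hochberg adjusted p under 0.05 in edgeR's quasi-likelihood test over 14863 genes, and log2 fold changes are given with their standard error (SE). The scaling moved the acidosis comparison as a whole, since the median log2 fold change of all tested genes was −0.05 with TMM and −0.63 with library totals only, and both are therefore given for the groups of genes below. In bulk RNA, fewer transcripts per cell and fewer cells that carry them cannot be told apart. All 6 HEK-293 markers examined (PAX2, NEFM, NEFL, VIM, KRT8 and KRT18) had counts in every sample, with a summed level of 1396 to 1440 CPM in control, 1401 to 1460 with SRPIN340 and 3485 to 3500 in acidosis. Most of the sum came from VIM, at a mean of 867 CPM in control, 864 with SRPIN340 and 2714 in acidosis. Of the 6 markers, 4 passed higher and 2 passed lower in acidosis. PAX2, a transcription factor of the developing kidney, was at 6.78 CPM in control and 1.82 CPM in acidosis. The 7 markers of other cell types summed to 39.0 to 40.3 CPM in control, 40.7 to 51.1 with SRPIN340 and 81.7 to 93.6 in acidosis, almost all of it from COL1A1 and LUM, while PTPRC, ALB, PECAM1, CDH5 and DCN were under 1 CPM in every group. Of the 4 of these 7 that could be tested, 3 passed higher and 0 lower in acidosis, and their part in the results below was not tested.

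The 13 mitochondrial genes are intronless protein-coding genes on chrM, and MT-ND6 is the only member on the minus strand. The ends of the genes as annotated are shown because the libraries were made by poly(A) capture. A further reason is that 6 of the 13 genes end short of a whole stop codon, which the poly(A) tail completes. Where the RNA of each gene ends was not measured. The last 18 bases of 5 of them are given 5′ to 3′ as DNA letters of the coding strand, from the GENCODE release 44 transcripts (GRCh38), with the stop codon or the part of it that the gene encodes in capitals.
MT-ND1 (chrM:3307-4262, plus strand): cattccccctcaaaccTA
MT-ND2 (chrM:4470-5511, plus strand): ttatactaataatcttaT
MT-CO1 (chrM:5904-7445, plus strand): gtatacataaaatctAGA
MT-CO2 (chrM:7586-8269, plus strand): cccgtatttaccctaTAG
MT-ND6 (chrM:14149-14673, minus strand): attgctcgggggaatAGG
MT-ND1 encodes TA and MT-ND2 encodes a single T of the stop codon. MT-CO1 and MT-ND6 end in codons that are taken as stops in human mitochondria but as arginine elsewhere.

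MT-ATP8 and MT-ATP6 lie on a shared mRNA and overlap by 46 bases. This stretch is shown because reads from it belong to both genes and were divided between them by the quantification. The start codon of MT-ATP6 and the stop codon of MT-ATP8 are in capitals.
MT-ATP8 end and MT-ATP6 start (chrM:8527-8572, plus strand): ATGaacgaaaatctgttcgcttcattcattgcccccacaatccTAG
MT-ND4L and MT-ND4 also share an mRNA and overlap by 7 bases, so the separate values of these genes are less certain than their common direction. Reads from nuclear copies of mitochondrial DNA and, if strand was not used in counting, from the strand opposite MT-ND6 are a further limit. MT-ND6 mRNA is known to lack a poly(A) tail, so its level in poly(A) libraries reads capture as well as abundance. Capture was not measured for the other mitochondrial mRNAs either. A change in capture and a change in abundance therefore cannot be told apart for any mitochondrial gene.

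In acidosis all 13 mitochondrial genes fell against control. The median log2 fold change was −2.22, and the values ranged from −3.20 for MT-CO1 to −1.28 for MT-ND2, which is 9.22-fold and 2.42-fold lower. For comparison, 34.2% of all tested genes passed lower in acidosis, and 19.1% did so with an absolute log2 fold change over 1, a limit that all 13 exceeded. The highest acidosis sample was below the lowest control sample for each of the 13, where 39.4% of all tested genes were lower without overlap. With library totals only the median was −2.79 and all 13 again passed lower. The comparison has 2 control samples, and nothing in the table tells whether samples of a group were separate cultures beyond the study's statement that they are biological repeats.

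**Figure D1:**
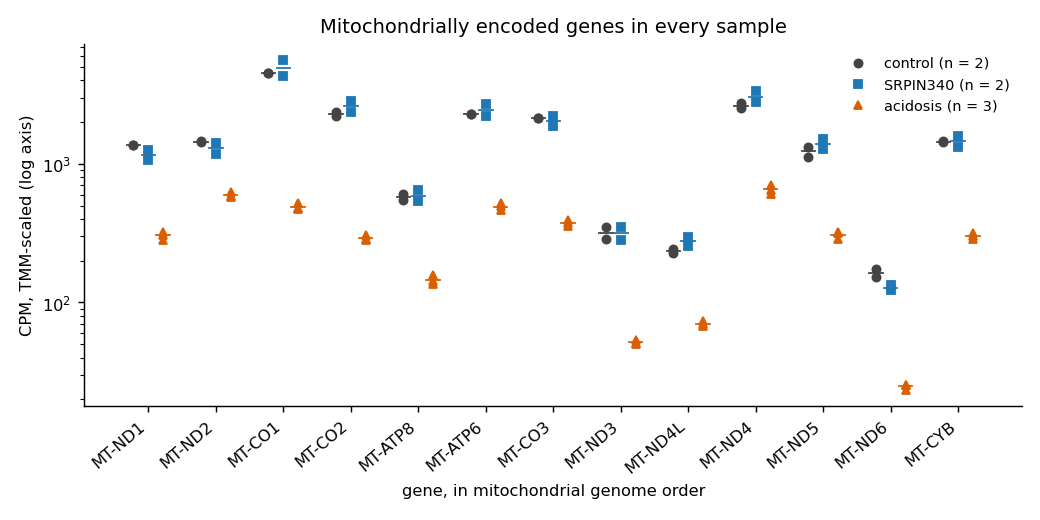
CPM of the 13 mitochondrial genes on a log axis, in the order of the mitochondrial genome, for each control (circle), SRPIN340 (square) and acidosis (triangle) sample, with a line at the group mean. The acidosis samples of MT-CO1 lie at 475 to 518 CPM below control samples at 4502 and 4556, and the SRPIN340 samples, at 4343 and 5578, lie on both sides of them.

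The catalytic subunits of complex IV fell furthest. MT-CO1, which holds the site of oxygen reduction, was at 4556 and 4502 CPM in control, 4343 and 5578 with SRPIN340 and 475, 518 and 481 in acidosis, a log2 fold change of −3.20 (SE 0.094, adjusted p = 8.85e-09). MT-CO2, which takes electrons from cytochrome c, was at 2352 and 2212 CPM in control, 2383 and 2836 with SRPIN340 and 285, 305 and 284 in acidosis, a log2 fold change of −2.97 (SE 0.078, adjusted p = 5.81e-09). MT-CO3, the third core subunit, fell by 2.52 on the log2 scale (SE 0.075). In these genes the acidosis samples formed a narrow group far below both other groups.

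The 7 mitochondrial subunits of complex I, which form its proton-pumping membrane arm, fell by between 1.28 and 2.72 on the log2 scale. MT-ND2 was at 1454 and 1445 CPM in control, 1184 and 1413 with SRPIN340 and 579, 623 and 591 in acidosis, so that it kept more of its level than any other mitochondrial gene (log2 fold change −1.28, SE 0.075, adjusted p = 3.92e-07). MT-ND6, encoded on the opposite strand, was at 173 and 153 CPM in control, 122 and 133 with SRPIN340 and 23.5, 25.2 and 25.5 in acidosis (log2 fold change −2.72, SE 0.090). The other complex I members were MT-ND1 at −2.17, MT-ND3 at −2.62, MT-ND4L at −1.75, MT-ND4 at −2.01 and MT-ND5 at −1.99.

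MT-CYB, the cytochrome b of complex III and its sole mitochondrial subunit, was at 1432 and 1459 CPM in control, 1329 and 1601 with SRPIN340 and 301, 316 and 285 in acidosis, a log2 fold change of −2.26 (SE 0.081). Of the Fo subunits of complex V, MT-ATP6 fell by 2.22 (SE 0.085) and MT-ATP8 by 2.00 (SE 0.093) on the log2 scale. These 3 genes lay near the middle of the mitochondrial range.

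The order of the mitochondrial genes therefore changed within the acidosis libraries, a comparison that scaling between libraries does not touch. MT-CO1 held 21.9% ± 0.27 (SD, n = 2) of the mitochondrial counts in control, 22.7% ± 0.89 (SD, n = 2) with SRPIN340 and 12.0% ± 0.27 (SD, n = 3) in acidosis. MT-ND2 held 7.01% ± 0.11 (SD, n = 2) in control, 5.97% ± 0.077 (SD, n = 2) with SRPIN340 and 14.6% ± 0.41 (SD, n = 3) in acidosis. The MT-ND2 to MT-CO1 count ratio was 0.319 and 0.321 in control, 0.273 and 0.253 with SRPIN340, and 1.22, 1.20 and 1.23 in acidosis. This pair was chosen after the values were seen, as the extremes of the fold changes, and its ratio carries no test. Per kb of transcript, MT-CO1 was the third of the 13 in control at 2937 CPM per kb and the eighth in acidosis at 319, while MT-ND2 moved from the eighth at 1391 to the third at 574. MT-ATP6 was the highest in both, at 3361 CPM per kb in control and 722 in acidosis, and MT-ND6 was the lowest, at 311 and 47.2.

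The form of the gene end, which the choice of genes did not use, did not separate the fold changes. The 6 genes that end short of a whole stop codon ranged from −2.62 to −1.28 with a median of −2.22, and the 7 that carry a whole stop codon ranged from −3.20 to −1.75 with a median of −2.22. The neighbours MT-ND2 and MT-CO1, which are transcribed on the same precursor and are both shown above, had the smallest and the largest fall.

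Summed over the 13 genes, all protein-coding, mitochondrial mRNA held 2.46% and 2.41% of the deposited counts in control. It held 2.38% and 2.89% with SRPIN340, and 0.320%, 0.346% and 0.307% in acidosis. The deposited counts include no mitochondrial rRNA or tRNA gene, so these are not shares of all mitochondrial RNA. The mean share in acidosis was 7.49-fold below control, and on TMM-scaled totals the sum was 5.03-fold lower. The 89 nuclear genes held 0.915% and 1.03% in control, 0.964% and 0.940% with SRPIN340, and 1.03%, 0.966% and 1.05% in acidosis, so that their share of the library overlapped between the groups. On TMM-scaled totals the nuclear sum was 7812 and 8739 CPM in control, 7971 and 7777 with SRPIN340 and 13129, 12080 and 13384 in acidosis, which is 1.55-fold higher in acidosis than in control without overlap. Per kb of transcript, the median mitochondrial gene was at 1431 CPM per kb in control and 319 in acidosis, and the median nuclear gene was at 71.5 and 97.7.

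Of the 89 nuclear genes 83 could be tested. In acidosis 55 of these rose, 11 fell and 17 did not pass. Their median log2 fold change was 0.66, in a range from −1.43 to 1.40. Over all tested genes 32.5% passed higher, 34.2% passed lower and 66.7% passed in either direction. With an absolute log2 fold change over 1 the nuclear counts were 15 higher and 3 lower, where 14.4% and 19.1% of all genes passed. With library totals only, 29 nuclear genes passed higher and 27 lower with a median of 0.09, against 16.2% and 55% of all tested genes and a median of −0.63. All 29 were among the 55, and the 11 lower genes passed lower on both scalings. The genes UQCRFS1 and NDUFA6, found after the values were seen, passed higher with TMM and lower with totals only. The direction of nuclear genes with small changes thus depends on the scaling, and the nuclear median lay above the median of all genes on both scalings. Samples did not overlap for 59 nuclear genes that were higher and 12 that were lower, against 37% and 39.4% of all tested genes.

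**Figure D2:**
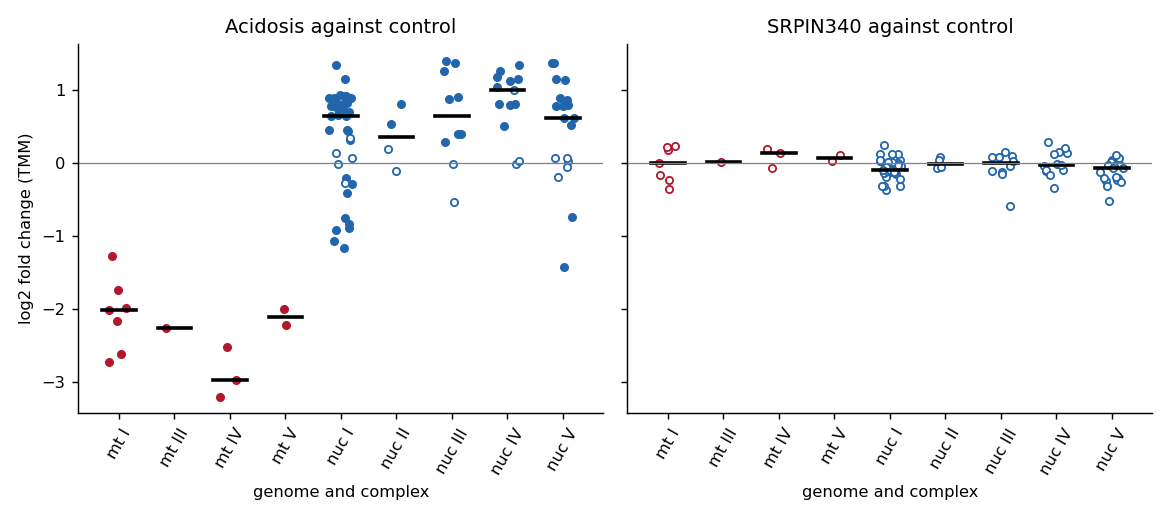
Fitted log2 fold changes (TMM) of the tested members against control for acidosis (left) and SRPIN340 (right), by genome (mt, mitochondrial, red; nuc, nuclear, blue) and complex, with a black line at each group's median. Filled points passed at an adjusted p under 0.05 and open points did not; in acidosis every mitochondrial point lies at or below −1.28 while the nuclear medians lie between 0.36 and 1.00, and with SRPIN340 every point is open.

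Among the 37 nuclear subunits of complex I, 23 rose, 9 fell and 5 did not pass (median 0.65), and with library totals only 8 passed higher and 14 lower. Over all tested genes 32.5% passed higher and 34.2% lower with TMM, and 16.2% and 55% with library totals only. These shares apply to the counts of each complex and its parts below. Of the 7 core subunits of the matrix arm, 3 were higher and 4 lower. They carry the flavin and the iron-sulfur clusters and bind quinone. Of the 30 accessory subunits 20 rose and 5 fell. On library totals alone, 2 core subunits passed higher and 4 lower, and 6 accessory subunits passed higher and 10 lower. By name and with TMM, 10 of 12 NDUFA genes rose and 1 fell, 6 of 11 NDUFB genes rose and 3 fell, both NDUFC genes rose, 3 of 8 NDUFS genes rose and 3 fell, and 1 of 3 NDUFV genes rose and 2 fell. Without TMM the NDUFA genes gave 4 higher and 2 lower, the NDUFB genes 0 and 5, the NDUFC genes 2 and 0, the NDUFS genes 1 and 5 and the NDUFV genes 1 and 2.

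NDUFV3 (chr21:42879644-42913304), an accessory subunit of the NADH-oxidizing module, was at 102 and 100 CPM in control, 86.8 and 98.7 with SRPIN340 and 43.4, 45.0 and 47.1 in acidosis (log2 fold change −1.16, SE 0.087, adjusted p = 1.93e-06). NDUFS1, the large iron-sulfur subunit, was at 144 and 154 CPM in control, 149 and 160 with SRPIN340 and 109, 115 and 113 in acidosis (log2 fold change −0.41, SE 0.071, adjusted p = 6.06e-04). In both genes the acidosis samples lay below every other sample.

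At the other end, NDUFA1 (chrX:119871832-119876662), a small membrane-arm subunit, was at 70.1 and 80.2 CPM in control, 77.3 and 70.9 with SRPIN340 and 185, 172 and 213 in acidosis (log2 fold change 1.34, SE 0.11, adjusted p = 3.29e-06). NDUFA3 was at 25.9 and 32.5 CPM in control, 30.2 and 29.7 with SRPIN340 and 68.1, 56.8 and 69.0 in acidosis (log2 fold change 1.15, SE 0.13). NDUFV1, the flavin-carrying core subunit that oxidizes NADH, was at 59.5 and 68.9 CPM in control, 61.4 and 57.4 with SRPIN340 and 131, 108 and 118 in acidosis (log2 fold change 0.90, SE 0.11, adjusted p = 4.50e-05). NDUFV1 and NDUFS1, which sit next to each other in the electron path, thus changed in opposite directions, on both scalings.

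Complex II, which has no mitochondrial subunit and also works in the citric acid cycle, had the lowest nuclear median, 0.36, with 2 of 4 genes higher and 0 lower. The catalytic subunits SDHA and SDHB did not pass. SDHA, the flavoprotein, was at 180 and 208 CPM in control, 186 and 185 with SRPIN340 and 182, 180 and 175 in acidosis (log2 fold change −0.11, SE 0.075), with overlapping samples. SDHB, the iron-sulfur protein, was at 71.2 and 72.7 CPM in control and 80.4, 85.1 and 80.3 in acidosis (log2 fold change 0.19, SE 0.076, adjusted p = 0.052). The membrane anchors SDHC and SDHD rose, SDHC from 73.3 and 77.7 CPM to 132, 121 and 144 (log2 fold change 0.81, SE 0.091) and SDHD from 48.8 and 40.9 CPM to 65.6, 64.4 and 64.7 (0.53, SE 0.098). With library totals only, SDHC alone passed higher, SDHA and SDHB passed lower, and SDHD was at −0.04.

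In complex III 8 of the 10 nuclear genes rose and 0 fell (median 0.64). With library totals only 5 passed higher and 2 lower. The small accessory subunits UQCR11 and UQCRQ lay highest. UQCR11 (chr19:1597169-1605473) was at 47.5 and 65.2 CPM in control, 60.7 and 59.5 with SRPIN340 and 162, 120 and 164 in acidosis (log2 fold change 1.40, SE 0.16, adjusted p = 4.20e-05). UQCRQ was at 56.3 and 92.7 CPM in control, 79.9 and 86.3 with SRPIN340 and 218, 164 and 199 in acidosis (log2 fold change 1.38, SE 0.19). The control samples of UQCRQ differed more from each other than those of most members, yet both stayed below all acidosis samples.

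The redox subunits of complex III moved less. CYC1, cytochrome c1, was at 42.0 and 54.2 CPM in control, 46.5 and 42.3 with SRPIN340 and 68.4, 57.5 and 64.0 in acidosis (log2 fold change 0.40, SE 0.13, adjusted p = 0.0198). This call rested on single samples, since without control replicate 1 the log2 fold change was 0.22 (adjusted p = 0.196) and without acidosis replicate 1 it was 0.34 (adjusted p = 0.0585). UQCRFS1, the Rieske iron-sulfur protein, was at 179 and 191 CPM in control and 224, 220 and 236 in acidosis (0.29, SE 0.067, adjusted p = 0.00356), and at −0.28 with library totals only. UQCRC2, a core protein without a redox group, was at 150 and 149 CPM in control and 146, 142 and 157 in acidosis (−0.01, SE 0.073). UQCRHL, an intronless copy of UQCRH that can share its reads, was at 0.172 to 2.14 CPM over all samples and was not called.

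Complex IV held the highest nuclear median, 1.00, with 10 of 13 tested genes higher and 0 lower, and with library totals only 8 passed higher and 2 lower. COX7C (chr5:86617928-86620962) was at 130 and 174 CPM in control, 172 and 162 with SRPIN340 and 407, 323 and 427 in acidosis (log2 fold change 1.34, SE 0.15, adjusted p = 2.44e-05). COX4I1 (chr16:85798633-85807068), the largest nuclear subunit, was at 207 and 232 CPM in control, 223 and 210 with SRPIN340 and 481, 451 and 500 in acidosis (log2 fold change 1.12, SE 0.077, adjusted p = 1.10e-06). COX5B, a zinc-binding subunit, was the exception among the regular subunits at 63.1 and 79.0 CPM in control and 79.9, 68.6 and 68.6 in acidosis (0.03, SE 0.12). COX7A2L, a relative of COX7A2 that joins complexes III and IV in supercomplexes, was at 59.8 and 57.1 CPM in control, 71.5 and 70.7 with SRPIN340 and 53.0, 60.8 and 60.7 in acidosis (−0.01, SE 0.092).

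Isoform pairs of complex IV could be compared because the tissue-restricted forms are separate genes. COX6A1 rose from 162 and 204 CPM to 417, 383 and 423 (log2 fold change 1.15, SE 0.098) and COX7A2 from 94.1 and 115 CPM to 256, 234 and 263 (1.26, SE 0.098). Their muscle partners COX6A2 and COX7A1, together with COX4I2 and the testis form COX7B2, had 0 counts in all 7 libraries, where a count of 0 allows up to 3 counts, which is 0.124 to 0.220 CPM on plain library totals. COX6B1 rose from 209 and 247 CPM to 398, 389 and 418 (0.81, SE 0.080). Its partner COX6B2 was at 0.360 and 0.843 CPM in control and 1.54, 0.918 and 1.12 in acidosis (1.00, SE 0.56, adjusted p = 0.140), too shallow for a call. COX8C and ATP5MGL had at most a few counts per library and were not tested.

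In complex V 12 of 19 tested nuclear genes rose and 2 fell (median 0.62), and with library totals only 7 passed higher and 7 lower. Its parts hold few genes each, and their counts are given without a comparison between the parts. Over all tested genes 32.5% passed higher and 34.2% lower with TMM, and 16.2% and 55% with library totals only. All 5 tested small membrane subunits and all 3 genes of the c ring rose, 3 of 5 genes of the F1 head and central stalk rose and 0 fell, and of the 4 peripheral stalk genes 1 rose and 1 fell. On plain library totals, 4 of the 5 small membrane subunits and 0 of the 3 c ring genes passed higher and none of either passed lower, the F1 genes gave 2 higher and 2 lower, and the peripheral stalk 1 higher and 3 lower. The 3 c ring genes, which encode the same mature protein, changed by 0.62 to 0.78 with TMM.

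ATP5F1B (chr12:56638175-56645984), the catalytic beta subunit, was at 604 and 679 CPM in control, 544 and 545 with SRPIN340 and 1437, 1344 and 1481 in acidosis (log2 fold change 1.15, SE 0.069, adjusted p = 4.94e-07). ATP5F1A, its non-catalytic partner in the F1 hexamer, was at 672 and 741 CPM in control and 1020.3, 929 and 1078 in acidosis (0.51, SE 0.074), and at −0.06 with library totals only. ATP5MG was at 90.9 and 104 CPM in control, 90.7 and 96.0 with SRPIN340 and 276, 207 and 276 in acidosis (1.38, SE 0.13). ATP5F1E, the epsilon subunit of the central stalk, was at 108 and 93.6 CPM in control, 72.5 and 67.1 with SRPIN340 and 248, 296 and 238 in acidosis (1.37, SE 0.11).

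ATP5PB (chr1:111448864-111462773), the b subunit of the peripheral stalk, moved the other way at 178 and 171 CPM in control, 145 and 136 with SRPIN340 and 103, 109 and 102 in acidosis (log2 fold change −0.73, SE 0.070, adjusted p = 9.92e-06). ATP5IF1, which inhibits the reverse reaction of the enzyme at low pH, was at 129 and 145 CPM in control and 114, 126 and 119 in acidosis (−0.19, SE 0.080, adjusted p = 0.0541), and it passed without control replicate 1 (−0.29) or acidosis replicate 2 (−0.23). The lowest complex V value, −1.43, belonged to ATP5MF-PTCD1, a readthrough gene at 2.48 to 11.0 CPM that shares its first exons with ATP5MF, a gene that rose, so the division of reads between them is uncertain. Among the 11 nuclear genes that fell, listed after their values were seen, were ATP5MF-PTCD1, ATP5PB and, in complex I, NDUFV3, NDUFA8, NDUFS3, NDUFV2, NDUFB9, NDUFS1, NDUFB3 and NDUFB10. Of the tested nuclear genes of complexes II, III and IV, 0 passed lower with TMM.

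**Figure D3:**
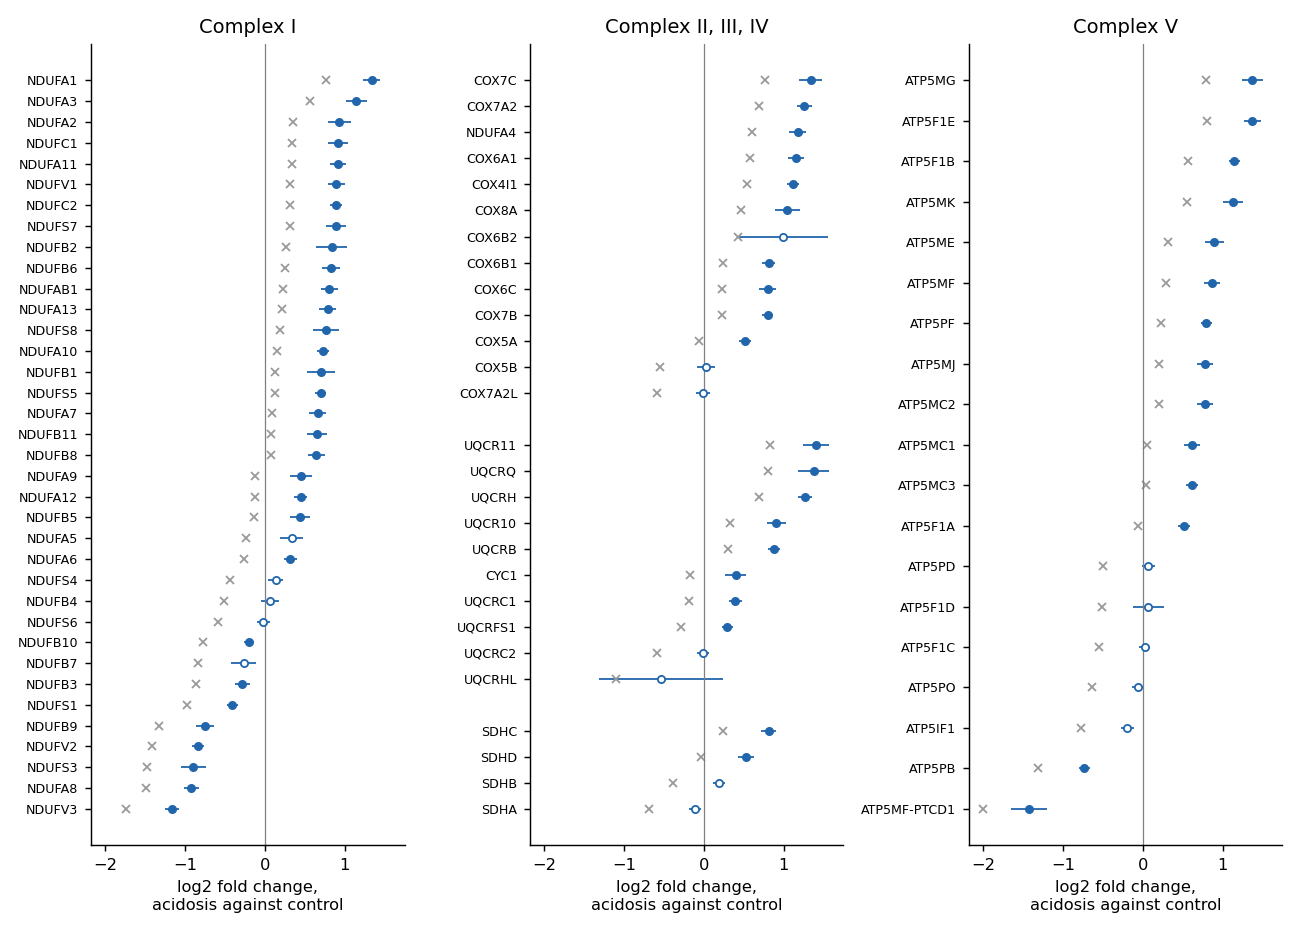
Log2 fold change in acidosis against control of tested nuclear members, by complex, with SE bars; filled points passed at an adjusted p under 0.05, open points did not, and grey crosses are the values with library totals only. The crosses lie to the left of the points throughout, NDUFV3 is the lowest of complex I at −1.16, and UQCR11, COX7C and ATP5MG top complexes III, IV and V at 1.40, 1.34 and 1.38.

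The balance between the genomes was read as the ratio of mitochondrial to nuclear counts within each library, which needs no scaling between libraries. Over all complexes the ratio was 2.68 and 2.33 in control, 2.47 and 3.07 with SRPIN340, and 0.310, 0.358 and 0.294 in acidosis. Every acidosis sample lay below every other sample, by 2.97 on the log2 scale between the means of acidosis and control. The mean ratio fell from 3.04 to 0.651 in complex I, from 1.58 to 0.195 in complex III, from 6.19 to 0.409 in complex IV and from 0.936 to 0.130 in complex V. As log2 differences these are −2.22, −3.03, −3.92 and −2.85. Complex IV had both the lowest mitochondrial median (−2.97) and the highest nuclear median (1.00). Complex I held MT-ND2, and 9 of its 37 nuclear genes passed lower, where 34.2% of all tested genes did. Its nuclear median of 0.65 was close to those of complexes III (0.64) and V (0.62). What sets the range of the ratios between complexes was not tested. The ratio sums chosen genes and is given without a p.

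**Figure D4:**
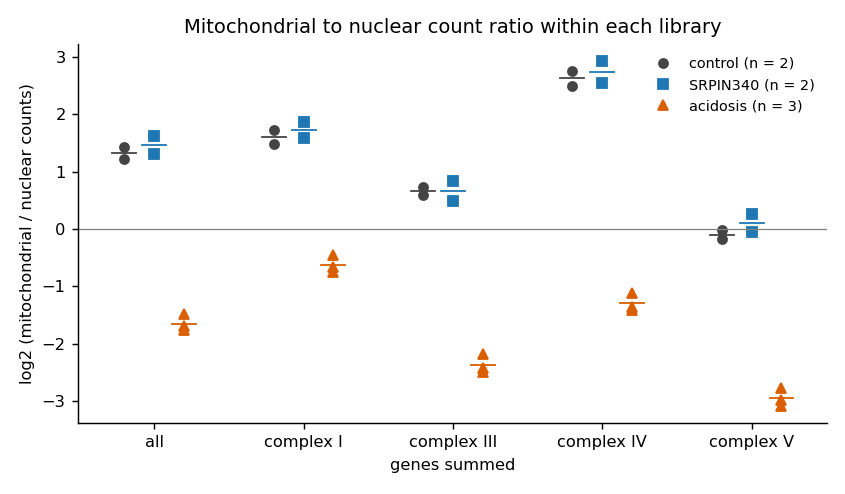
Log2 of the summed mitochondrial over the summed nuclear counts in each library, over all members and within complexes I, III, IV and V, for control (circle), SRPIN340 (square) and acidosis (triangle) with a line at the group mean. Acidosis samples lie below the other groups in every column, with the widest gap, −3.92 between the means of acidosis and control, in complex IV.

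With SRPIN340, 0 of the 96 tested members passed in edgeR's test, where 0.767% of all tested genes passed higher, 1.53% lower and 2.3% in either direction. At an unadjusted p under 0.05 there were 4 mitochondrial and 11 nuclear members of the 96, where 17.6% of all tested genes had such a p. The median log2 fold change was 0.03 for the mitochondrial and −0.06 for the nuclear genes, and the nuclear range was −0.59 to 0.28. Samples did not overlap for 3 mitochondrial and 7 nuclear genes that were higher and for 3 and 20 that were lower, where 27.3% and 26.8% of all genes did not overlap in those directions. DESeq2 called 5 members, all lower, where it called 2.66% higher and 4.7% lower of the 11981 genes to which it gave an adjusted p. These were ATP5F1E, NDUFB10, ATP5PB, ATP5F1B and MT-ND6, with log2 fold changes of −0.53, −0.32, −0.32, −0.24 and −0.36.

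The 3 members with the smallest p in edgeR's test were ATP5F1E, NDUFB10 and ATP5PB. ATP5F1E was lower with SRPIN340 in both samples, as given above, at a log2 fold change of −0.53 (SE 0.12, adjusted p = 0.0528), and was called without acidosis replicate 2 (adjusted p = 0.0240). NDUFB10, a membrane-arm subunit of complex I, was at 151 and 153 CPM in control, 125 and 120 with SRPIN340 and 131, 129 and 136 in acidosis, which gives −0.31 (SE 0.072, adjusted p = 0.0598) with SRPIN340 and −0.20 (SE 0.066, adjusted p = 0.0217) in acidosis. The acidosis call was lost without acidosis replicate 1, control replicate 1 or control replicate 2 (adjusted p = 0.0511, 0.0614 and 0.0660). ATP5PB was at −0.31 with SRPIN340 (SE 0.076, adjusted p = 0.0698). Both comparisons use the same 2 control samples. ATP5F1E stood below control with SRPIN340 and above it in acidosis, and the 2 treated groups did not overlap.

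Tested directly against SRPIN340, acidosis had all 13 mitochondrial genes lower (median −2.28, range −3.34 to −1.12), 56 nuclear genes higher and 10 lower (median 0.64). Over all tested genes 32.8% passed higher, 35% lower and 67.8% in either direction. With an absolute log2 fold change over 1, all 13 mitochondrial genes were lower, and 23 nuclear genes were higher and 3 lower, where 14.9% of all genes were higher and 19.7% lower. Samples did not overlap for the 13 mitochondrial genes and for 62 higher and 11 lower nuclear genes, against 37.7% and 40.6% of all genes. With library totals only 33 nuclear genes passed higher and 26 lower, against 15.8% and 56.9% of all tested genes. The direct difference was largest among nuclear genes for ATP5F1E (1.90, adjusted p = 4.50e-07), followed by NDUFA4 (1.52, adjusted p = 1.44e-06), which was named after its values were seen.

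Genes that assemble or serve the chain were counted from lists written with earlier results of these data known, and the percentages of all genes given above, 32.5% higher and 34.2% lower in acidosis, apply to each. The medians were above 0 in 6 of 9 lists with TMM and in 0 of 9 with library totals only, where the median of all genes is −0.63. Of 19 complex I assembly factors 9 rose and 6 fell (median 0.39), with ECSIT at 1.77 and NDUFAF6 at −1.48. Of 4 complex II factors 2 rose and 1 fell (median 0.26), with SDHAF4 at 1.25 and SDHAF2, which inserts the flavin of SDHA, at −1.66. Of 8 complex III factors 4 rose and 2 fell (median 0.20), and the largest changes were falls of LYRM7 (−1.84), a chaperone of the Rieske protein, and TTC19 (−1.73). Of 23 complex IV factors 13 rose and 5 fell (median 0.49), with PET117 at 1.83 and the copper chaperone COX17 at a mean of 22.9 CPM in control and 64.8 CPM in acidosis. Of 6 complex V factors 2 rose and 1 fell (median −0.11), with TMEM242 at 0.80 and FMC1 at 0.76.

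The mobile carriers and coenzyme Q genes held 4 higher and 7 lower of 14 (median −0.44). CYCS, cytochrome c itself, was at 182 and 165 CPM in control, 177 and 184 with SRPIN340 and 556, 581 and 628 in acidosis (log2 fold change 1.76, SE 0.077), while COQ8A, needed for coenzyme Q synthesis, was at −1.30. The citric acid cycle list held 8 higher and 4 lower of 14 (median 0.25), and its largest changes were falls of OGDH (−1.53) and DLD (−1.58), both of the 2-oxoglutarate dehydrogenase complex. Among 13 nuclear regulators 5 rose and 4 fell (median 0.14), led by MYC (1.93) and PPRC1 (1.91), a relative of the coactivator PGC-1. Of 28 tested genes of mitochondrial transcription and RNA handling 6 rose and 13 fell (median −0.16), with SLIRP, which stabilizes mitochondrial mRNA, at −2.01 and the mitochondrial poly(A) polymerase MTPAP at 1.81. With SRPIN340, 0 genes of these 9 lists passed higher, and 1 passed lower, PNPT1 of the mitochondrial RNA list (−0.66, adjusted p = 0.0354), against 0.767% and 1.53% of all genes.

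The nuclear members differ in gene structure, and their fold change in acidosis was set against it as a description. Over the 83 tested nuclear genes Spearman's rho of the log2 fold change was −0.31 with gene span, −0.29 with exon number and −0.16 with transcript length. Over 14849 tested genes outside the mitochondrial genome it was −0.14, −0.085 and −0.085. All points share the same 5 libraries. Differences between replicates of 1 group gave larger values with span and transcript length, and smaller ones with exon number. For control replicate 2 over 1, rho in the 83 genes was −0.36 with span, −0.096 with exon number and −0.34 with transcript length. For acidosis replicate 1 over 2 it was −0.40, −0.21 and −0.37. The order of the replicates is arbitrary, so the sign of these values has no meaning, and other pairs are not given. Over the 14849 genes, rho for the control pair was −0.21 with span, −0.064 with exon number and −0.22 with transcript length. For the acidosis pair it was −0.18, −0.034 and −0.17. With span and transcript length the replicate values exceed in size those for acidosis against control, in the 83 genes and over all genes. The relation with span is thus not larger than that seen between replicates. The median span was 10.5 kb for the genes that rose, 19.2 kb for those that fell and 12.4 kb for the rest. Of the 35 genes with a span up to 10 kb 32 had a positive log2 fold change (median 0.80), against 21 of 29 genes between 10 and 30 kb (median 0.66) and 11 of 19 genes over 30 kb (median 0.19). In the same 3 classes the medians over all genes were 0.23, 0.04 and −0.16.

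**Figure D5:**
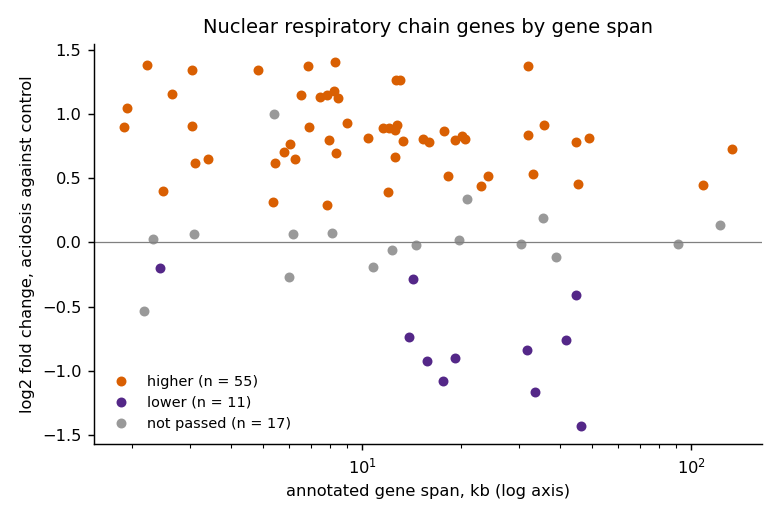
Log2 fold change in acidosis against control of the 83 tested nuclear members over the span of the annotated gene in kb on a log axis; orange points rose (55), purple points fell (11) and grey points did not pass (17). Of the genes that fell, NDUFB10 alone lies under 10 kb, and genes that rose are found over the whole range of spans.

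Promoters of nuclear respiratory chain genes are known for sites of the factors NRF1, GABP (an ETS factor) and YY1. RefSeq promoters (GRCh38.p14, 250 bases before to 50 after the gene start) were found for 70 of the 89 nuclear members and searched on both strands. The RefSeq start can differ from that of the GENCODE gene whose coordinates are given above. The GENCODE start lay inside the window for 52 of the 70 and outside it for 18, and the starts were more than 1 kb apart for 10. The NRF1 motif (GCGC, then any base, then TGCGC) was in 17 of the 70 (24.3%) against 6.28% of 27305 promoters, the ETS motif CCGGAAG in 20 (28.6%) against 10.7%, the YY1 motif AAGATGGCG in 8 (11.4%) against 1.85%, and the TATA motif TATAAA in 7 (10%) against 12.0%. Of the 44 members with a promoter that rose in acidosis, 11 had the NRF1, 14 the ETS, 6 the YY1 and 5 the TATA motif. Of the 8 that fell, 1 had the NRF1 and 2 the ETS motif, and 0 had the YY1 or TATA motif. The promoters of the nuclear members with the highest fold change and, apart from the readthrough gene, the lowest fold change are shown 5′ to 3′ with these motifs in capitals.
UQCR11 (chr19:1605413-1605712, minus strand): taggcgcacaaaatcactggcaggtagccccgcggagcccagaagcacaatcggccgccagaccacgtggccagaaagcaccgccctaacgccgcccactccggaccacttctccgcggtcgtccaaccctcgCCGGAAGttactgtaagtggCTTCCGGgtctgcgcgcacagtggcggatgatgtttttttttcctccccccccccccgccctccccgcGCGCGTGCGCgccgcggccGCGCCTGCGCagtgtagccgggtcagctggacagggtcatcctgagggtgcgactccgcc
NDUFV3 (chr21:42893059-42893358, plus strand): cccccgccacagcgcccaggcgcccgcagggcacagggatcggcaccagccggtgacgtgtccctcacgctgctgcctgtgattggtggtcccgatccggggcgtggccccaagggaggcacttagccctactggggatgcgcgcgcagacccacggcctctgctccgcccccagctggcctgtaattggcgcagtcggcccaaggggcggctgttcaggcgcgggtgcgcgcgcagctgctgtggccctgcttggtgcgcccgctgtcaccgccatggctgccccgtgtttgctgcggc
The UQCR11 window holds the ETS letters on both strands and the NRF1 letters at 2 places, and the NDUFV3 window holds none of the 4 motifs. The UQCR11 window contains the GENCODE start, whereas the NDUFV3 window is set on a RefSeq start 13.7 kb downstream of it, inside the gene as annotated by GENCODE, so the bases around the GENCODE start were not searched. A match is a description of the letters in this window, and a missing match says nothing of the factor.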

How the data were processed

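Poly(A) RNA of 7 HEK-293 samples was sequenced. The authors trimmed the reads (Trimmomatic 0.39, Trim Galore 0.6.6), ran Salmon 1.5.1 with default parameters on the transcripts of Gencode GRCh38.p13 and aggregated the output by gene with tximport, whose scaling option and the strand setting are not given in the sources used here. The authors deposited estimated counts, some of them fractional, without normalization between libraries, in 1 column per sample. Each of the biological repeats was run in technical replicates that cannot be separated here.

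Here the estimated counts were rounded and tested with edgeR 4.0.16 (quasi-likelihood test, TMM, filterByExpr) in R 4.3.3, in 1 fit of all 7 samples without a block. P-values were adjusted by the Benjamini-Hochberg method over 14863 genes. The study's further limit, an absolute log2 fold change over 1, was counted beside it. The p-values measure the spread between these samples only. Of the 102 members 96 were tested. COX4I2, COX6A2, COX7A1, COX7B2, COX8C and ATP5MGL fell under the count filter. Library totals of 13615816 to 24110460 counts set the precision, and intervals from counts cover counting error only. CPM use TMM-scaled totals, and levels per kb divide by the canonical transcript of GENCODE release 44, which matched 19977 of 19978 genes and gave the coordinates (GRCh38).

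Alternatives were DESeq2 1.42.0, RLE size factors, library totals only, other count filters, fits of only the groups compared, a replicate block, the mitochondrial genes left out and each replicate left out. Tests were also run on simulated counts in which few genes changed, equally in both directions. That check does not cover the scaling of the acidosis comparison. Genes were named by rule: all mitochondrial genes; in each complex the 2 highest and 2 lowest fold changes in acidosis at a mean of at least 10 CPM; the subunits NDUFS1, NDUFV1, SDHA, CYC1, UQCRFS1, COX4I1, ATP5F1A and ATP5F1B; 4 isoform pairs of complex IV; the 3 members with the smallest p with SRPIN340; and up to 2 passing genes per list. Of the genes named by this rule, 1 is not reported here. The members, lists and rules were chosen with earlier results of these data known. Figures were drawn with matplotlib 3.10.9 in Python 3.11.15.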

Additional observations from a re-analysis of the deposited data

How the results depend on the processing

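The fall of all 13 mitochondrial genes in acidosis, against control and against SRPIN340, kept its direction and its call under every alternative that kept them in the fit. The median of the mitochondrial genes against control lay between −2.26 and −2.17 when single replicates were left out, and that of the nuclear members between 0.59 and 0.75, with 52 to 55 passing higher and 9 to 11 lower. Library totals only changed the nuclear counts to 29 higher and 27 lower against control and to 33 higher and 26 lower against SRPIN340, and the fold limit with TMM changed them to 15 and 3 and to 23 and 3. With library totals only the log2 fold change turned below 0 for SDHB (−0.39), SDHD (−0.042), UQCRFS1 (−0.28), COX5B (−0.55), CYC1 (−0.18) and ATP5F1A (−0.061), which follows from the shift of all genes. Values near 0 also changed sign: UQCRC2 with DESeq2 (0.015), RLE size factors (0.015) and without acidosis replicates 1 or 2 (between −0.048 and 0.021 over all replicates left out); COX7A2L with DESeq2 (0.014), RLE size factors (0.015) and without acidosis replicate 1 or control replicate 1 (between −0.062 and 0.057); and COX5B with a filter of at least 6 CPM on the mean (−0.025), without a count filter (−0.00021) and without acidosis replicate 1 or control replicate 1 (between −0.13 and 0.18). With SRPIN340 the members passing lower numbered 0 in the reported fit, 5 with DESeq2, 2 (ATP5F1E and NDUFB10) with the 6 CPM filter, and 1 (ATP5F1E) without a count filter, with only the 2 groups compared, or without acidosis replicate 2, so that leaving out replicates gave 0 to 1, and the mitochondrial median ranged from −0.11 to 0.16. The cause of these changes was not tested. The mitochondrial share in acidosis was 7.49-fold lower on plain totals, 7.30 to 7.75 without single replicates and 5.03 on TMM-scaled totals. The log2 change of the mitochondrial to nuclear ratio was −2.74 without the most abundant gene of each sum and −2.81 as a difference of medians over all complexes, −3.67 and −3.52 for complex IV, and −2.52 for complex V without the most abundant gene.

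Whether replicate numbers pair the samples could not be decided, since in a group of 2 the deviations from the mean are equal and opposite. Deviations of same-numbered samples correlated at 0.0051 between control and SRPIN340. The values were −0.057 and −0.115 between control and acidosis, and 0.063 and 0.042 between SRPIN340 and acidosis. With the number as a replicate block, members passing changed from 79 to 77 in acidosis, 0 to 0 with SRPIN340 and 79 to 78 between treatments. In the same order, the calls over all genes changed from 9917 to 9234, from 342 to 51 and from 10084 to 9460. Most SRPIN340 calls over all genes were thus lost. The block leaves fewer residual degrees of freedom than the reported fit, and the cause of the lost calls was not tested. Among named genes, CYC1 (adjusted p = 0.0644) and NDUFB10 (adjusted p = 0.0531) were not called in acidosis under the block. NDUFB10 also missed the threshold in acidosis without acidosis replicate 1 or either control replicate (adjusted p = 0.0511 to 0.0660). SDHB passed higher with DESeq2 (0.21) and RLE size factors (0.21), and ATP5IF1 passed lower with both count filters, with library totals only and without control replicate 1 or acidosis replicate 2 (−0.77 to −0.22). Depth limited the members near 1 CPM: COX6B2 had an SE of 0.56 and UQCRHL of 0.77 on the log2 scale in acidosis.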
